A study of Mus musculus with 36 samples.

Results

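The comparison described here is that of long-term hematopoietic stem cells (LT-HSC) from *Il27ra*-/- mice, whose gene for the IL-27 receptor alpha chain was deleted on both chromosomes, with LT-HSC from *Il27ra*+/- mice, which kept 1 working copy, after infusion of angiotensin II (Ang II). Its members were chosen by their labels and not by any measured value: the 4 libraries of each genotype that the labels give as LT-HSC and Ang II, 8 of the 36 libraries of the series. This choice and that of the gene lists were made with earlier results of these data known. Used beside them were LT-HSC after PBS (3 libraries per genotype), HPC-1 after Ang II (4 per genotype) and LT-HSC with intact *Il27ra* (2 libraries after Ang II, 1 after PBS), all without *Apoe* and on the same diet. In full, the groups were *Apoe*-/-*Il27ra*-/- and *Apoe*-/-*Il27ra*+/-, written *Il27ra*-/- and *Il27ra*+/- below. All mice were C57BL/6 and lacked apolipoprotein E, the deletion of *Il27ra* was germline and so present in every cell of the body, and the controls were littermates and cage mates that carried 1 deleted allele. Western diet (WD) began at an age of 8 weeks and lasted 12 weeks. Ang II was given at 800 ng per kg per min by osmotic mini-pump for the last 2 weeks. Each library was made from 5000 cells sorted by FACS from the bone marrow (BM) as Lin-Sca-1+c-Kit+CD150+CD48-.

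The IL-27 receptor joins IL-27Rα, the product of *Il27ra*, to gp130, the signal chain that it shares with the receptors of IL-6 and related cytokines, and it signals through the Janus kinases. Interferon gamma, which signals through Janus kinases too, raises the genes of antigen presentation and of the interferon-inducible GTPases. LT-HSC are the rare cells at the top of BM hematopoiesis, most of which do not divide at a given time, and which enter the cell cycle under inflammatory stress.

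The values below are counts scaled to 1 M per library (CPM) after TMM normalization, given for replicates 1 to 4 of each genotype in that order, and fold changes are *Il27ra*-/- against *Il27ra*+/- on the log2 scale, from edgeR's quasi-likelihood test. Libraries held 2183648, 2568392, 4512346 and 6861078 counts in *Il27ra*+/- and 2487152, 2320769, 4526734 and 6618618 counts in *Il27ra*-/-. A count of 3, taken as the limit of detection, came to 0.437 to 1.37 CPM in these libraries and covers counting error only. Replicates 1 and 2 of each genotype held under 4 M counts and expressed the Y-linked genes, and replicates 3 and 4 held over 4 M and expressed *Xist*, with 4067 and 3831 CPM in *Il27ra*+/- and 4557 and 3606 CPM in *Il27ra*-/-. Depth and the expression of sex-linked genes therefore cannot be told apart here, but both were spread evenly over the genotypes, and differences within each pair of replicates are given beside the main results.

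The label LT-HSC was checked on the markers of the cell type and of the sort. All 20 genes of the HSC identity list were above the limit of detection in each of the 8 libraries, with a summed level of 4104, 4598, 4579 and 4187 CPM in *Il27ra*+/- and 4790, 2752, 4443 and 4377 CPM in *Il27ra*-/-. *Slamf1*, which encodes CD150 of the sort, was at 31.9, 47.2, 62.0 and 38.0 CPM in *Il27ra*+/- and at 48.7, 22.1, 68.7 and 75.4 CPM in *Il27ra*-/-. *Cd48*, whose product the sort selected against, was at 0.491, 0, 0 and 1.92 CPM in *Il27ra*+/- and at 1.17, 8.76, 0.427 and 0.844 CPM in *Il27ra*-/-. The 4 *Il27ra*+/- libraries and *Il27ra*-/- replicates 1, 3 and 4 thus all carried the stem cell markers, with *Slamf1* between 31.9 and 75.4 CPM, and little or no *Cd48*, while *Il27ra*-/- replicate 2 was lowest for *Slamf1* and for the identity list and highest for *Cd48*. Among the 4 genes of the sorting gate, none had an unadjusted p under 0.05 in either direction. *Kit*, the receptor of stem cell factor, was at 953, 1271, 893 and 827 CPM in *Il27ra*+/- and at 1213, 806, 885 and 887 CPM in *Il27ra*-/-. Of the 20 identity genes, none had an unadjusted p under 0.05 with all 4 *Il27ra*-/- libraries or without replicate 2, and their median log2 fold change was 0.04 and 0.23, against 0.01 and −0.00 over all genes tested.

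*Il27ra*-/- replicate 2 carried RNA of mature blood cells. The 20 genes of the granulocyte and monocyte list summed to 311, 324, 207 and 257 CPM in *Il27ra*+/- and to 305, 12780, 237 and 280 CPM in *Il27ra*-/-. All 20 were above the limit of detection in *Il27ra*-/- replicate 2, against 6 to 12 of them in the other 7 libraries, and the most abundant member was *Lyz2*, the gene of lysozyme. *Lyz2* was at 134, 127, 113 and 105 CPM in *Il27ra*+/- and at 112, 1768, 121 and 105 CPM in *Il27ra*-/-. *Mpo*, which encodes myeloperoxidase of neutrophil granules, was at 4.91, 3.14, 2.86 and 0.686 CPM in *Il27ra*+/- and at 10.5, 1185, 1.07 and 20.5 CPM in *Il27ra*-/-. Erythroid genes, with *Car2* the most abundant, summed to 478, 1002, 761 and 740 CPM in *Il27ra*+/- and to 539, 4327, 951 and 1225 CPM in *Il27ra*-/-. *Car2* itself was at 421 CPM in replicate 2, within the 264 to 558 CPM of the other libraries, so other members made up the higher sum. The eosinophil, basophil and mast list summed to 2.94, 3.54, 5.06 and 45.6 CPM in *Il27ra*+/- and to 14.8, 873, 16.2 and 2.95 CPM in *Il27ra*-/-, where *Prg2*, the gene of eosinophil major basic protein, was its most abundant member and *Mcpt8* and *Prss34* had no count outside replicate 2. Replicate 2 stood far above the other 7 libraries in each of these lists, and more mature cells and more RNA per such cell cannot be told apart in bulk RNA. With all 4 *Il27ra*-/- libraries, 17 of the 20 granulocyte and monocyte genes were higher in *Il27ra*-/- at an unadjusted p under 0.05, against 1.77% of all genes tested, and without replicate 2 it was 0 of 18, against 0.541%. Of the 10 macrophage genes tested, 1 was higher, *Csf1r*, with 70.1 CPM in replicate 2 and at most 2.75 CPM elsewhere, and of the 10 eosinophil, basophil and mast genes 2 were, *Mcpt8* and *Prss34*, against the same 1.77%; without replicate 2 none was in either list. None of the 17 erythroid genes had such a p in either fit, nor did any of the 5 T and NK genes or the 10 of marrow stroma and endothelium that were tested. The B lymphoid list had none of 7 with all libraries and 1 lower without replicate 2, *Cd74*, against 0.923% of all genes, taken up below with the antigen presentation genes. Across genes, Pearson's r of log2 CPM was 0.893 to 0.911 between *Il27ra*-/- replicate 2 and the other 7 libraries and 0.936 to 0.976 among those 7, as a description in which genes are not independent replicates. Each result is therefore given with all 4 *Il27ra*-/- libraries and again without replicate 2.

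**Figure D1:**
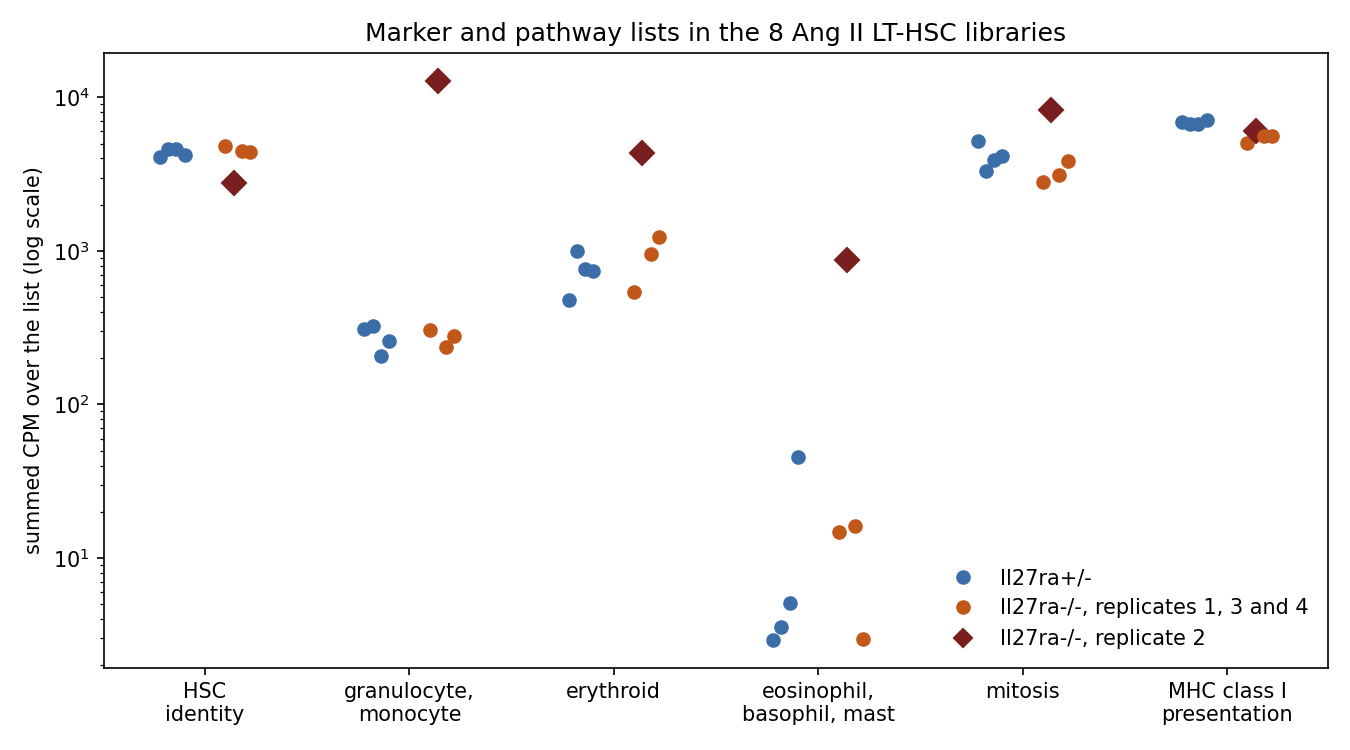
Summed CPM of 6 gene lists (log axis) in each of the 8 libraries, 1 point per library, in blue for Il27ra+/−, orange for Il27ra−/− and as a dark diamond for Il27ra−/− replicate 2. The diamond lies far above all other points for granulocyte and monocyte genes (12780 CPM) and below them for HSC identity (2752 CPM), while all 4 Il27ra−/− points lie below the Il27ra+/− points for MHC class I presentation.

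With all libraries, edgeR called 0 of 16365 genes tested (0%) at a false discovery rate of 5%, and 426 had an unadjusted p under 0.05, 290 higher and 136 lower in *Il27ra*-/-. Without replicate 2 it called 0 of 16256 (0%), and 238 had such a p, 88 higher and 150 lower. DESeq2 called 2 genes in each case, *H2-Q6* and *Gm24924*, of which the latter had counts in only 1 of the 8 libraries, and limma-voom called 0. With no filter on low counts, edgeR called 249 of 29655 genes, 196 of them higher in *Il27ra*-/-. Without replicate 2 and with no filter it called 10 of 29536, 1 of them higher and 9 lower. Of the genes described below, *H2-Q6*, *H2-Q7*, *Adgrl1*, *Kcnj5* and *Plek* passed in both of these fits with no filter, all lower. The balance of directions at an unadjusted p under 0.05 also depended on the fit: with all libraries, limma-voom gave 294 higher and 326 lower, the fit with a replicate block 152 and 151, and the fit of the compared groups only 159 and 148. Of the genes at an unadjusted p under 0.05, 137 were in both fits with the filter, 32.2% of those with all libraries and 57.6% of those without replicate 2, and 79 of the 137 were lower in *Il27ra*-/-. Among the genes that had such a p with all libraries only, 232 were higher and 57 lower, so most of the excess of higher genes came with replicate 2. As none passed the adjustment by edgeR with the filter, the values below describe levels in these samples, and each named gene had an adjusted p of 1.00 in each of those fits that tested it except *H2-Q6*, at an adjusted p of 0.550 with all 4 *Il27ra*-/- libraries. In both fits the genes lower in *Il27ra*-/- included members of antigen presentation by MHC class I and II, interferon-inducible GTPases and surface proteins of the platelet lineage, while no list had more than 1 gene higher at such a p without replicate 2.

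*Il27ra* itself (chr8:84030294-84042589, minus strand) was at 31.4, 26.7, 28.4 and 33.9 CPM in *Il27ra*+/- and at 17.1, 12.4, 16.9 and 19.7 CPM in *Il27ra*-/-. Every *Il27ra*-/- library lay below every *Il27ra*+/- library, and transcript was still counted in each of them. The values were 30.1 ± 3.18 CPM in *Il27ra*+/- (SD, n = 4) and 16.5 ± 3.01 CPM in *Il27ra*-/- (SD, n = 4), or 17.9 ± 1.56 CPM without replicate 2 (SD, n = 3). The difference in mean log2 CPM was −0.86, with an exact two-sided permutation p = 0.0286, the smallest that 4 against 4 libraries allow. Without replicate 2 it was −0.73, with an exact two-sided permutation p = 0.0286 that is again the smallest possible. Within the pair of replicates under 4 M counts the difference was −0.96, or −0.74 without replicate 2, and within the pair over 4 M it was −0.75. Counts per gene do not tell reads of the deleted exons from reads of the remaining ones. LT-HSC with intact *Il27ra* were at 44.7 and 53.4 CPM after Ang II and at 17.8 CPM in the 1 library after PBS, which lies among the *Il27ra*-/- values above, so these few libraries do not fix the level of 2 working copies.

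Of the 20 genes of the IL-27 receptor pathway, all tested, *Il27ra* alone was lower at an unadjusted p under 0.05, against 0.831% of all genes tested, and none was higher. *Jak1*, the most abundant member of the list, was at 451, 491, 463 and 481 CPM in *Il27ra*+/- and at 507, 454, 481 and 484 CPM in *Il27ra*-/-. *Il6st*, the gene of gp130, was at 96.1, 104, 105 and 84.8 CPM against 92.3, 77.0, 107 and 103 CPM. Over all 8 libraries the groups overlapped for every member except *Il27ra*, and the list's median was −0.00 with all libraries and −0.04 without replicate 2. *Il27*, which encodes the p28 subunit of the cytokine, was at 2.45, 2.75, 0.880 and 1.92 CPM in *Il27ra*+/- and at 11.7, 2.77, 1.07 and 1.41 CPM in *Il27ra*-/-. The receptor for the infused peptide, *Agtr1a*, was at 0, 3.54, 5.28 and 0.137 CPM in *Il27ra*+/- and at 3.12, 4.15, 2.56 and 1.83 CPM in *Il27ra*-/-. Of the 14 genes of the renin-angiotensin system 6 were tested, none with an unadjusted p under 0.05 in either fit, and *Agtr1b*, *Agtr2* and *Ren1* had no count in any of the 8 libraries.

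Genes of antigen presentation by MHC class I and the interferon gamma list described below held the most members lower in *Il27ra*-/- at an unadjusted p under 0.05, 6 and 5 of them with all libraries and 5 each without replicate 2. The 23 genes of this list, all tested, summed to 6867, 6677, 6658 and 7168 CPM in *Il27ra*+/- and to 5066, 6015, 5582 and 5615 CPM in *Il27ra*-/-, so that the genotypes did not overlap. Of the 23, 6 were lower at an unadjusted p under 0.05, against 0.831% of all genes, and 0 were higher; without replicate 2 it was 5, against 0.923%, and 0. The groups did not overlap for 6 members lower in *Il27ra*-/-, against 1.05% of all genes, and for 0 higher, against 0.904%; without replicate 2 this held for 8 lower, against 2.36%, and 0 higher, against 2.61%. The log2 fold change was negative for 21 of the 23 in both fits, with a median of −0.29 and −0.26, against 0.01 and −0.00 over all genes. Among replicates under 4 M counts the median of the list was −0.13, or −0.29 without replicate 2, and among those over 4 M it was −0.29.

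*H2-Q6* (chr17:35424850-35430055), a nonclassical class I heavy chain of the Qa-2 family, was at 297, 331, 315 and 311 CPM in *Il27ra*+/- and at 174, 128, 210 and 181 CPM in *Il27ra*-/-. The *Il27ra*+/- libraries lay close together, and the lowest of them, at 297 CPM, was far above the highest *Il27ra*-/- library, at 210 CPM. The means were 314 ± 14.3 CPM (SD, n = 4) and 173 ± 33.9 CPM (SD, n = 4), or 188 ± 19.1 CPM without replicate 2 (SD, n = 3), and the log2 fold change was −0.85 (SE 0.159, adjusted p = 0.550), and −0.74 (SE 0.154, adjusted p = 1.00) without replicate 2. DESeq2 gave −0.84 with an adjusted p of 0.000995, and −0.74 with an adjusted p of 0.00927 without replicate 2, and edgeR with no filter on low counts gave adjusted p of 0.00116 and 0.0348, so that the tool and the filter decide whether this gene passes. Over all alternatives run its adjusted p was between 0.000995 and 1.00, and it was lower in 4 of 4 *Il27ra*-/- libraries. Within the pair under 4 M counts the difference was −1.07, or −0.85 without replicate 2, and within the pair over 4 M it was −0.68. *H2-Q7* (chr17:35439155-35443773), its neighbor and near-identical copy, was at 351, 372, 375 and 491 CPM in *Il27ra*+/- and at 160, 133, 268 and 238 CPM in *Il27ra*-/-. Again no *Il27ra*-/- library reached the lowest *Il27ra*+/- library, and the log2 fold change was −0.99 (SE 0.214), or −0.84 (SE 0.204) without replicate 2. Reads may be assigned to either of these copies or to *H2-Q4*, so their counts are not separate measurements.

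*H2-K1*, a classical class I heavy chain and the most abundant member of the list, was at 973, 1060, 1034 and 1110 CPM in *Il27ra*+/- and at 748, 617, 915 and 935 CPM in *Il27ra*-/-. The groups did not overlap, by a small margin in replicates 3 and 4, and the log2 fold change was −0.38 (SE 0.136), or −0.27 (SE 0.131) without replicate 2. *H2-T23*, which encodes the nonclassical chain Qa-1, was at 169, 191, 181 and 211 CPM in *Il27ra*+/- and at 147, 144, 140 and 142 CPM in *Il27ra*-/-, again without overlap. *H2-Q4* was at 201, 235, 212 and 277 CPM against 166, 117, 156 and 204 CPM, where 1 *Il27ra*-/- library passed the lowest of *Il27ra*+/-. *Nlrc5*, the transactivator of MHC class I genes, was at 141, 187, 136 and 232 CPM in *Il27ra*+/- and at 120, 76.5, 124 and 127 CPM in *Il27ra*-/-. All *Il27ra*-/- libraries were below all of *Il27ra*+/-, and replicate 2 was the lowest, with a log2 fold change of −0.64 (SE 0.187) and −0.50 (SE 0.177) without it. The light chain *B2m* was at 565, 756, 680 and 608 CPM in *Il27ra*+/- and at 568, 627, 583 and 534 CPM in *Il27ra*-/-, the peptide transporter *Tap1* at 127, 134, 196 and 183 against 115, 140, 120 and 133 CPM, and the immunoproteasome subunit *Psmb9* at 36.3, 34.2, 40.2 and 46.1 against 33.5, 28.6, 32.2 and 34.2 CPM. The groups overlapped for the first pair and only just did not for *Psmb9*, and none of the 3 had an unadjusted p under 0.05. *Calr*, the peptide-loading chaperone calreticulin, was at 1330, 905, 755 and 774 CPM in *Il27ra*+/- and at 629, 1116, 600 and 649 CPM in *Il27ra*-/-, with replicate 2 alone among the *Il27ra*+/- libraries. *H2-Q4* and *H2-T23* fell outside the rule for named genes and were chosen after their values were seen.

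**Figure D2:**
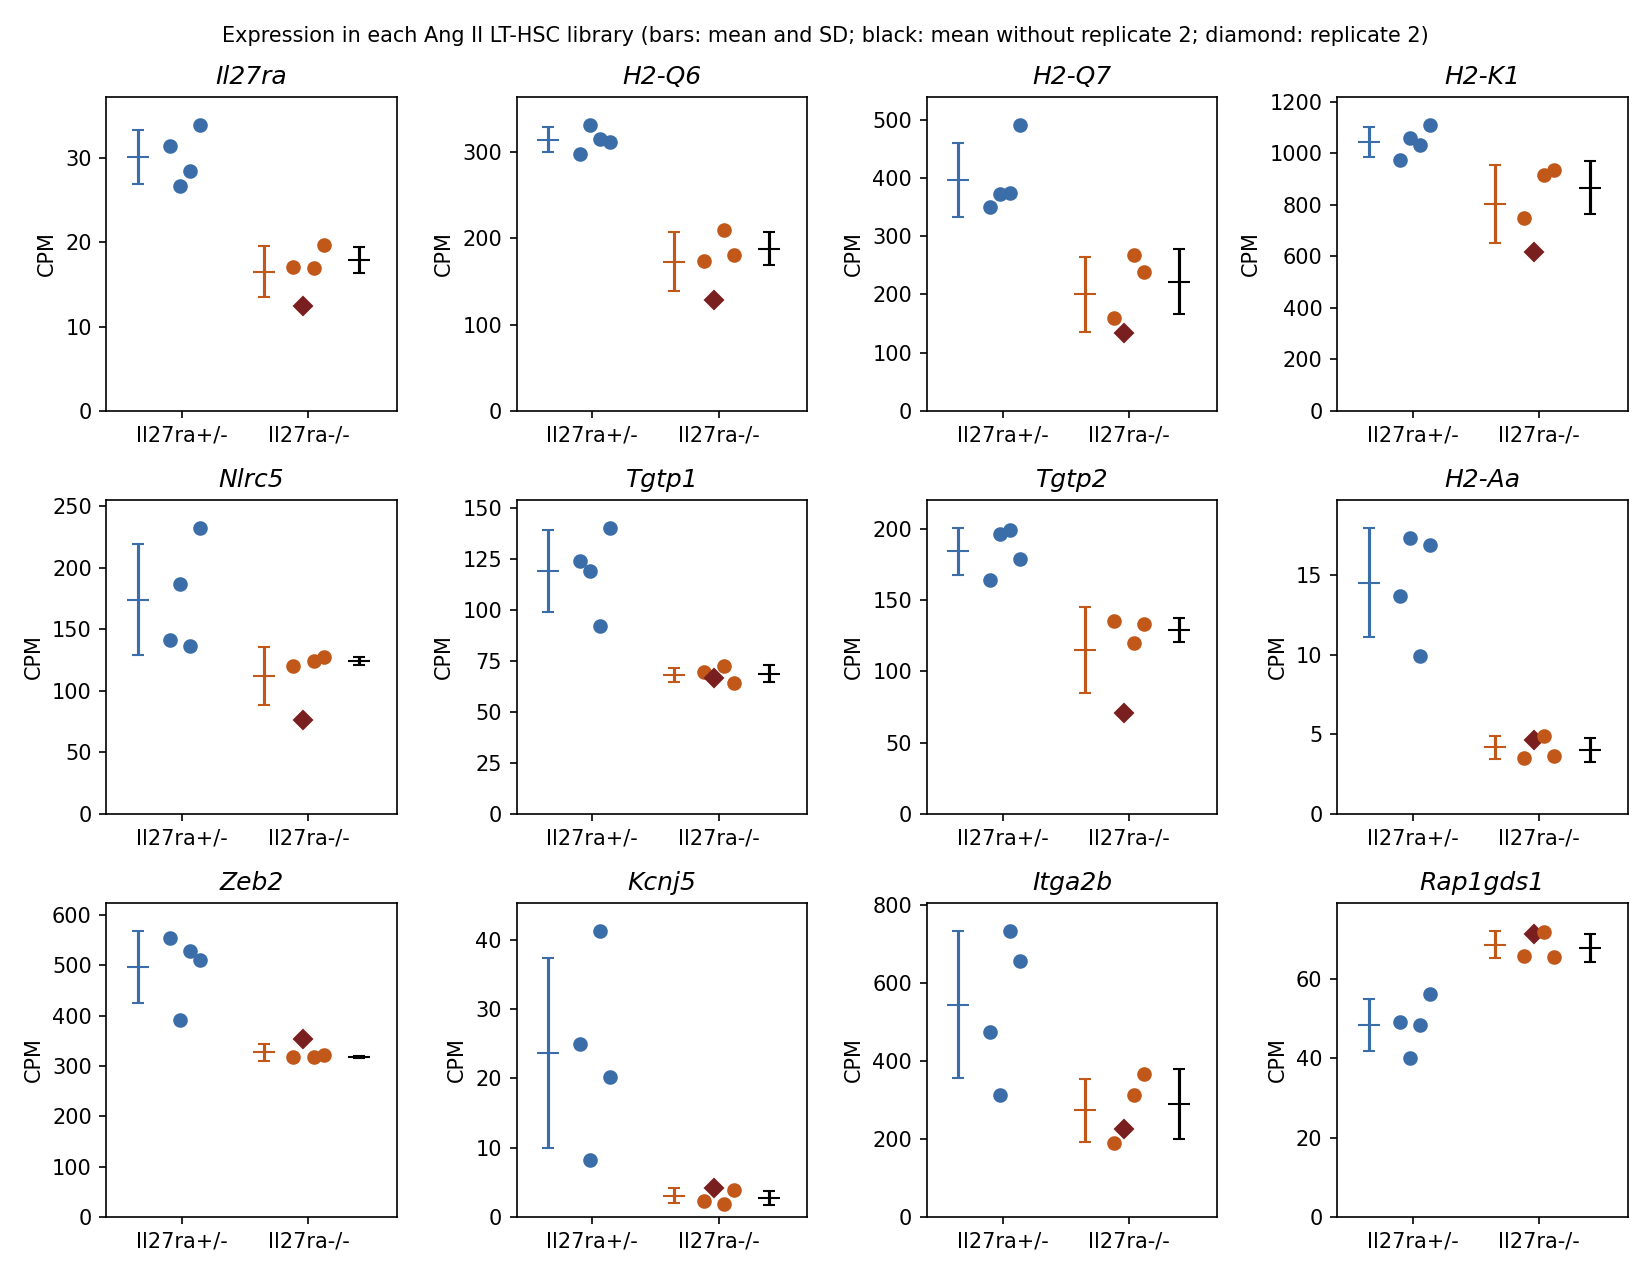
CPM of 12 genes in each library, from 0 on each vertical axis, with 1 point per library and the mean with its SD beside the points (blue, 4 Il27ra+/− libraries; orange, 4 Il27ra−/− libraries; black, Il27ra−/− without replicate 2, which is drawn as a diamond). The groups do not overlap for any of the 12 except Itga2b, and for H2-Q6 all 4 Il27ra−/− points (128 to 210 CPM) lie under the lowest Il27ra+/− point (297 CPM).

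The interferon gamma list, which holds interferon-inducible GTPases, their transcription factors and the receptor, was likewise lower in *Il27ra*-/-. Its 23 measured genes summed to 1420, 1600, 1428 and 1644 CPM in *Il27ra*+/- and to 1352, 1176, 1134 and 1175 CPM in *Il27ra*-/-, without overlap. Of the 22 tested, 5 were lower at an unadjusted p under 0.05 (*Nlrc5*, *Tgtp1*, *Tgtp2*, *Irf1* and *Igtp*) and 1 was higher, *Ifngr2*, against 0.831% and 1.77% of all genes. Without replicate 2 it was 5 and 0, against 0.923% and 0.541%. The log2 fold change was negative for 19 of 22, or 20 of 22 without replicate 2, with a median of −0.32 and −0.31. Among replicates under 4 M counts the median was −0.31, or −0.05 without replicate 2, and among those over 4 M it was −0.42. *Tgtp1*, a GTPase of the immunity-related family that acts against pathogens inside cells, was at 124, 119, 92.2 and 140 CPM in *Il27ra*+/- and at 69.3, 66.4, 72.3 and 64.1 CPM in *Il27ra*-/-. The 4 *Il27ra*-/- libraries were close to each other, replicate 2 among them, and all under the lowest of *Il27ra*+/-, with a log2 fold change of −0.81 (SE 0.221), and −0.79 (SE 0.244) without replicate 2. *Tgtp2*, its near-identical copy, was at 164, 196, 199 and 179 CPM in *Il27ra*+/- and at 135, 70.5, 120 and 133 CPM in *Il27ra*-/-. The groups did not overlap, and the log2 fold change was −0.68 (SE 0.210), and −0.51 (SE 0.191) without replicate 2; reads may be assigned to either copy. *Gm12185* (chr11:48904656-48992226), which overlaps *Tgtp1* on the same strand, was at 15.7, 25.6, 27.7 and 32.8 CPM in *Il27ra*+/- and at 13.6, 14.3, 8.11 and 10.5 CPM in *Il27ra*-/-, again apart. *Irf1*, a transcription factor induced by interferon gamma, was at 101, 72.3, 60.9 and 66.0 CPM in *Il27ra*+/- and at 69.3, 50.2, 45.0 and 49.2 CPM in *Il27ra*-/-, where *Il27ra*-/- replicate 1 lay among the *Il27ra*+/- libraries. *Igtp* was at 43.7, 54.2, 43.1 and 58.0 CPM against 45.2, 27.2, 32.4 and 29.8 CPM, with the same replicate among those of *Il27ra*+/-. *Irf1* and *Igtp* were chosen after their values were seen. The receptor chain *Ifngr2* went the other way, at 4.18 to 10.8 CPM in *Il27ra*+/- and at 12.9 and 13.4 CPM in *Il27ra*-/- replicates 1 and 4, with replicate 3 just under these and no overlap. Its log2 fold change of 1.04 (SE 0.414) was 0.52 (SE 0.383) without replicate 2, the library highest for it.

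Genes of the type I interferon response were read in the same way: of 31 tested, 0 had an unadjusted p under 0.05 with all libraries. Without replicate 2 it was 2 of 30, both lower, *Parp14* and *Eif2ak2*, against 0.923% of all genes. The median of the list was −0.09, and −0.13 without replicate 2. *Parp14* was at 240, 223, 175 and 208 CPM in *Il27ra*+/- and at 180, 210, 147 and 167 CPM in *Il27ra*-/-. *Eif2ak2*, the kinase PKR, was at 212, 173, 121 and 148 CPM in *Il27ra*+/- and at 133, 188, 97.1 and 133 CPM in *Il27ra*-/-. The groups overlapped for both.

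Promoters of the members of the MHC class I and interferon gamma lists, lower or not, were read from RefSeq (GRCm38.p6, the build of mm10); each stretch lies within the 250 bases before the start of the gene. The first motif searched was GAAANN followed by GAAA, the core letters of the interferon-stimulated response element, on both strands. It was in 936 of 27025 promoters of that length (3.46%), in 10 of 17 of the interferon gamma list with a promoter in the table (58.8%) and in 3 of 20 of the MHC class I list (15.0%). The other motif was CCAAT, also on both strands (ATTGG on the reverse), found in 37.5% of all promoters, in 15 of 20 of the MHC class I list (75.0%) and in 8 of 17 of the interferon gamma list (47.1%). Of the members lower at an unadjusted p under 0.05 that have a promoter in the table, the first motif was in 3 of 4 of the interferon gamma list and 1 of 5 of the MHC class I list, and CCAAT was in 1 of 4 and 5 of 5. The stretches of *Tgtp1* (chr11:48992294-48992343, minus strand), *Tgtp2* (chr11:49064253-49064302, minus strand) and *Igtp* (chr11:58199502-58199551, plus strand) show the motif in capitals with up to 20 bases on each side, and its first base lies 77, 70 and 34 bases before the RefSeq start of the gene. For *Tgtp1* that start lies inside the longer gene of the annotation used for positions (chr11:48985327-48994172), and so does the stretch.
Tgtp1: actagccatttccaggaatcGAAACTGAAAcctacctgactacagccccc
Tgtp2: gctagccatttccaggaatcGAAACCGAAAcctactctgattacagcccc
Igtp: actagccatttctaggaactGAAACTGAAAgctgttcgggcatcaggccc

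The stretches of *H2-Q6* (chr17:35424751-35424819, plus strand) and *H2-Q7* (chr17:35439095-35439154, plus strand) show CCAAT and its reverse ATTGG in capitals, at 79 and 40 bases before the start of the gene for the first of them, and are printed because this pair had the smallest p among those lower in *Il27ra*-/-.
H2-Q6: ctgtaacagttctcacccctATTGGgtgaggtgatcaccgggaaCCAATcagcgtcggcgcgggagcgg
H2-Q7: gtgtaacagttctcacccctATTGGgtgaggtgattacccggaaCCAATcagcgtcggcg
The letters before the motif are much alike within each set. After the motif they are alike for *H2-Q6* and *H2-Q7*, while those of *Igtp* differ from those of *Tgtp1* and *Tgtp2*. A match describes the sequence and says nothing on its own about binding of a factor, which was not tested.

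Of the 10 MHC class II genes tested, 1 was lower at an unadjusted p under 0.05, *H2-Aa*, and 2 were without replicate 2, *H2-Aa* and *Cd74*, against 0.831% and 0.923% of all genes; none was higher. The list summed to 121, 180, 129 and 185 CPM in *Il27ra*+/- and to 106, 240, 79.8 and 82.4 CPM in *Il27ra*-/-, with overlap and with replicate 2 the highest of the 8 libraries. *H2-Aa*, the alpha chain of the class II molecule, was at 13.7, 17.3, 9.90 and 16.9 CPM in *Il27ra*+/- and at 3.51, 4.61, 4.91 and 3.66 CPM in *Il27ra*-/-. All *Il27ra*-/- libraries, replicate 2 included, lay under the lowest of *Il27ra*+/-, at 4.17 ± 0.694 CPM (SD, n = 4) against 14.5 ± 3.43 CPM (SD, n = 4), with a log2 fold change of −1.79 (SE 0.555), and −1.83 (SE 0.615) without replicate 2. *Cd74*, the invariant chain, was at 26.0, 40.9, 22.7 and 35.7 CPM in *Il27ra*+/- and at 15.6, 24.9, 8.75 and 5.91 CPM in *Il27ra*-/-. Replicate 2 alone lay among the *Il27ra*+/- libraries, and the log2 fold change was −1.24 (SE 0.634) with it and −1.69 without it. The median of the list was −0.62, and −0.60 without replicate 2, at levels far under those of class I. Class II genes are also expressed by B cells and macrophages; the B lymphoid list, of which *Cd74* is the most abundant member, summed to 127, 53.9, 40.2 and 83.8 CPM in *Il27ra*+/- and to 33.9, 90.8, 24.8 and 18.7 CPM in *Il27ra*-/-, and the macrophage list to 19.6, 39.3, 26.6 and 49.5 CPM in *Il27ra*+/- and to 20.3, 175, 26.5 and 35.3 CPM in *Il27ra*-/-. Their part in the difference was not tested.

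Genes of the megakaryocyte and platelet lineage, several of which LT-HSC express, were lower in *Il27ra*-/- in part. The list of 20 summed to 2214, 2349, 4299 and 3392 CPM in *Il27ra*+/- and to 2103, 1258, 2724 and 2674 CPM in *Il27ra*-/-, with overlap and with the higher sums in replicates 3 and 4 of both genotypes. Of the 19 tested, 4 were lower at an unadjusted p under 0.05 (*Itga2b*, *Gp1ba*, *F2rl2* and *Selp*), against 0.831% of all genes, and 0 higher, and 2 without replicate 2, *Itga2b* and *Gp1ba*, against 0.923%. *Itga2b*, the integrin chain CD41, was at 474, 313, 734 and 657 CPM in *Il27ra*+/- and at 190, 226, 313 and 367 CPM in *Il27ra*-/-. Within each pair of replicates the genotypes did not overlap, with differences of −0.89 under 4 M counts and −1.03 over it, while over all 8 libraries they did, and the log2 fold change was −0.99 (SE 0.330), and −0.91 (SE 0.378) without replicate 2. *Gp1ba*, the von Willebrand factor receptor chain, was at 41.7, 40.1, 40.2 and 45.8 CPM in *Il27ra*+/- and at 32.3, 28.1, 23.3 and 23.8 CPM in *Il27ra*-/-, without overlap. *F2rl2*, the thrombin receptor PAR3, was at 51.5, 29.5, 55.9 and 42.0 CPM in *Il27ra*+/- against 38.2, 19.4, 31.8 and 27.7 CPM, and *Selp*, P-selectin, at 154, 105, 199 and 162 CPM against 119, 69.1, 117 and 125 CPM; both overlapped, and *Il27ra*-/- replicate 2 was the lowest library for each. The ligand of *Gp1ba*, *Vwf*, was at 310, 377, 1036 and 713 CPM in *Il27ra*+/- and at 294, 121, 677 and 668 CPM in *Il27ra*-/- and was higher in replicates 3 and 4 of both genotypes than in replicates 1 and 2. The median of the list was −0.49, and −0.37 without replicate 2; within the pair under 4 M counts it was −0.43, or −0.03 without replicate 2.

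Other single genes were lower in *Il27ra*-/-, without overlap between the groups unless stated. *Zeb2*, a zinc finger transcription factor of hematopoietic differentiation, was at 554, 392, 528 and 511 CPM in *Il27ra*+/- and at 317, 353, 318 and 321 CPM in *Il27ra*-/-. The *Il27ra*-/- libraries lay within a narrow range under all of *Il27ra*+/-, at a log2 fold change of −0.60 (SE 0.159), and −0.64 (SE 0.172) without replicate 2. *Muc13*, a transmembrane mucin that is on the intestinal epithelium list and that LT-HSC express, was at 641, 513, 602 and 595 CPM in *Il27ra*+/- and at 417, 429, 420 and 437 CPM in *Il27ra*-/-. It was the only gene of 15 tested from that list with an unadjusted p under 0.05, in both fits, against 0.831% and 0.923% of all genes lower. *Kcnj5*, an inward rectifier potassium channel, was at 25.0, 8.25, 41.3 and 20.2 CPM in *Il27ra*+/- and at 2.34, 4.15, 1.92 and 3.94 CPM in *Il27ra*-/-. It was low in all *Il27ra*-/- libraries and varied widely within *Il27ra*+/-, with a log2 fold change of −2.94 (SE 0.709), and −3.07 (SE 0.793) without replicate 2. *Psd3*, an exchange factor for the GTPase ARF6, was at 198, 124, 166 and 131 CPM in *Il27ra*+/- and at 99.7, 82.1, 102 and 92.8 CPM in *Il27ra*-/-, again apart. Chosen by the fit without replicate 2 were *Fyb*, an adaptor protein of T cells and platelets, at 312, 201, 237 and 284 CPM in *Il27ra*+/- and 186, 257, 121 and 152 CPM in *Il27ra*-/-, and *Plek*, pleckstrin, at 190, 155, 418 and 255 CPM in *Il27ra*+/- and 135, 162, 139 and 151 CPM in *Il27ra*-/-. For these, as for *Mdm1*, *Ckap2l* and *Mcu*, which the same fit chose, replicate 2 alone lay among the *Il27ra*+/- libraries or, for *Mcu*, above them; *Ckap2l*, a protein of the mitotic spindle, was at 144, 82.9, 121 and 112 CPM in *Il27ra*+/- and at 62.3, 142, 59.1 and 69.2 CPM in *Il27ra*-/-. *Mdm1* and *Mcu* had log2 fold changes of −1.03 and −0.78 without replicate 2 and of −0.84 and −0.36 with it.

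Other genes lower in *Il27ra*-/- lie near *Il27ra* on chromosome 8. *Adgrl1* (chr8:83900105-83941954), which encodes the adhesion receptor latrophilin 1, was at 104, 73.1, 147 and 120 CPM in *Il27ra*+/- and at 44.0, 43.3, 62.7 and 66.7 CPM in *Il27ra*-/-. All *Il27ra*-/- libraries were below all of *Il27ra*+/-, and the log2 fold change was −1.03 (SE 0.271), and −0.94 (SE 0.296) without replicate 2. Within 1 Mb of *Il27ra*, a window chosen after values were seen, 53 other genes were tested, of which 4 were lower at an unadjusted p under 0.05 (*Tbc1d9*, *Adgrl1*, *Palm3* and *Hook2*) and 1 was higher, *Asna1*, against 0.831% and 1.77% of all genes. Without replicate 2 it was 3 lower, as *Tbc1d9* was not among them, against 0.923%, and 0 higher. The same 4 were the genes of the window whose groups did not overlap, all lower, against 1.05% of all genes, and the median of the 53 was −0.10, and −0.11 without replicate 2. *Palm3*, whose end overlaps that of *Il27ra* on the other strand, was at 4.91, 8.25, 4.62 and 6.45 CPM in *Il27ra*+/- and at 0, 2.30, 2.13 and 1.55 CPM in *Il27ra*-/-. *Hook2* was at 30.4, 29.1, 18.3 and 30.6 CPM in *Il27ra*+/- and at 12.5, 11.5, 16.9 and 16.6 CPM in *Il27ra*-/-. *Tbc1d9* was at 6.87, 10.2, 12.8 and 13.6 CPM in *Il27ra*+/- and at 3.51, 0, 2.13 and 4.08 CPM in *Il27ra*-/-, and *Asna1* at 14.7, 13.4, 15.2 and 16.6 CPM against 16.0, 30.4, 17.3 and 26.6 CPM, highest in replicate 2. *Tbc1d9*, *Palm3*, *Hook2* and *Asna1* were named after their values were seen. *Calr*, described above, is another of the 53. On the same chromosome but outside the window are *Orc6*, 1.27 Mb from *Il27ra*, *Nlrc5*, 10.4 Mb from it, and *Psd3*, 16.3 Mb from it. Whether sequence linked to the deleted allele has a part in these differences was not tested.

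**Figure D3:**
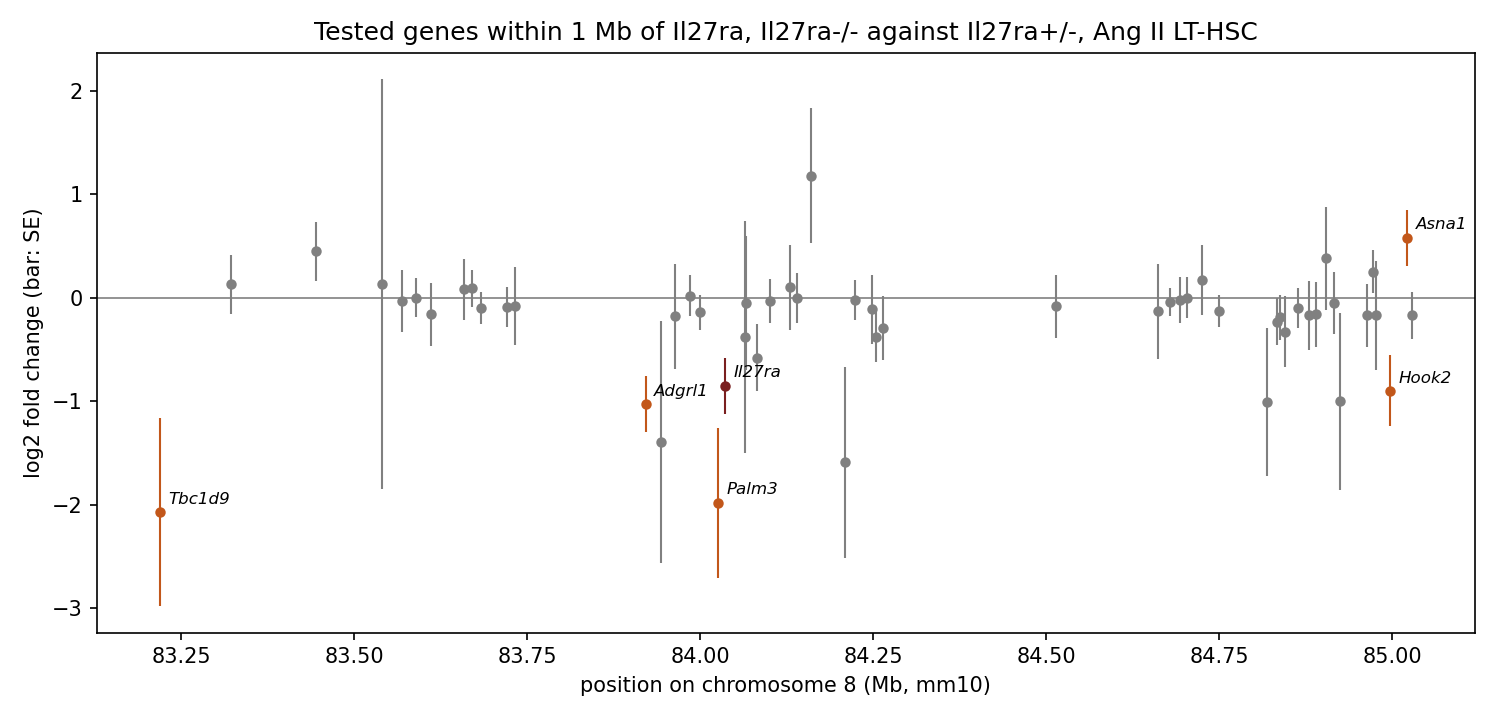
Log2 fold change of Il27ra−/− against Il27ra+/− (vertical axis, bars are the SE) at the position of each tested gene within 1 Mb of Il27ra on chromosome 8 (horizontal axis, Mb of mm10), where orange marks genes whose unadjusted p was under 0.05 and dark red marks Il27ra. Adgrl1, Palm3, Tbc1d9 and Hook2 lie below 0 and Asna1 above it, among 53 neighbors whose median is −0.10.

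Several of the genes that were higher in *Il27ra*-/- without overlap owed part of the difference to replicate 2. *Rap1gds1*, a regulator of small GTPases, was at 49.1, 40.1, 48.4 and 56.1 CPM in *Il27ra*+/- and at 65.8, 71.4, 71.7 and 65.5 CPM in *Il27ra*-/-. *Klf3*, a transcriptional repressor, was at 18.6, 36.2, 27.7 and 27.6 CPM in *Il27ra*+/- and at 37.4, 49.3, 39.5 and 45.0 CPM in *Il27ra*-/-. *Fkbp1a*, the binding protein of rapamycin, was at 43.2, 50.7, 49.7 and 38.6 CPM in *Il27ra*+/- and at 68.5, 51.6, 71.9 and 66.0 CPM in *Il27ra*-/-, where replicate 2 was the closest to *Il27ra*+/-. These 3 were apart in all libraries and kept log2 fold changes of 0.48, 0.56 and 0.60 without replicate 2. *Abhd5*, an activator of lipolysis, was at 7.85, 5.50, 8.36 and 5.90 CPM in *Il27ra*+/- and at 19.5, 30.9, 8.96 and 11.7 CPM in *Il27ra*-/-. Replicate 2 was the highest library, and the log2 fold change of 1.34 was 0.94 without it. Of the others chosen with all libraries, *Nhsl2* went from 1.35 to 0.44, *Litaf* from 0.90 to 0.50, *Plp2* from 0.66 to 0.51 and *Ppp1r18* from 0.47 to 0.35 when replicate 2 was left out. *Nhsl2* was at 22.1, 29.1, 23.5 and 27.4 CPM in *Il27ra*+/- and at 40.1, 160, 31.8 and 32.6 CPM in *Il27ra*-/-. *Gm8979*, a pseudogene whose reads may come from related genes, was at 0.981, 1.97, 6.16 and 3.98 CPM in *Il27ra*+/- and at 19.1, 6.91, 11.7 and 10.4 CPM in *Il27ra*-/-.

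In the fit without replicate 2 the higher genes included *Ifitm1*, an interferon-induced membrane protein, at 56.9, 88.4, 77.2 and 62.3 CPM in *Il27ra*+/- and 140, 80.2, 141 and 97.3 CPM in *Il27ra*-/-, and *Epb41l4b*, a FERM domain protein, at 57.4, 75.1, 60.9 and 68.5 CPM in *Il27ra*+/- and 146, 50.2, 107 and 106 CPM in *Il27ra*-/-. For both, *Il27ra*-/- replicates 1, 3 and 4 lay above all *Il27ra*+/- libraries and replicate 2 did not. *Deptor*, an inhibitor of mTOR, was at 70.1, 77.0, 53.2 and 72.5 CPM in *Il27ra*+/- and at 127, 58.1, 89.2 and 92.8 CPM in *Il27ra*-/-. *Bnip3*, a mitophagy receptor, was at 9.81, 11.4, 13.6 and 11.8 CPM in *Il27ra*+/- and at 24.9, 11.1, 19.4 and 23.2 CPM in *Il27ra*-/-, with replicate 2 again at the level of *Il27ra*+/-. Their log2 fold changes without replicate 2 were 0.82 for *Ifitm1*, 0.86 for *Epb41l4b*, 0.59 for *Deptor* and 0.94 for *Bnip3*.

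Genes of cell division took opposite directions with and without replicate 2. The mitosis list of 38 genes, all tested, summed to 5170, 3318, 3935 and 4162 CPM in *Il27ra*+/- and to 2828, 8214, 3141 and 3857 CPM in *Il27ra*-/-. Replicate 2 was the highest of the 8 libraries and replicates 1 and 3 the lowest, so that 31 of 38 members were higher in *Il27ra*-/- with all libraries, at a median of 0.17, and 34 of 38 were lower without replicate 2, at a median of −0.23. None of the 38 had an unadjusted p under 0.05 in either fit. *Mki67*, the proliferation marker Ki-67 and the most abundant of them, was at 1863, 1120, 1168 and 1342 CPM in *Il27ra*+/- and at 902, 3055, 935 and 1194 CPM in *Il27ra*-/-. Its log2 fold change was 0.15 (SE 0.381) with all libraries and −0.44 without replicate 2, where *Il27ra*-/- replicates 1 and 3 lay under all *Il27ra*+/- libraries and replicate 4 among them. The DNA replication list of 35 genes summed to 3535, 2802, 3303 and 3441 CPM in *Il27ra*+/- and to 2530, 5216, 2967 and 3150 CPM in *Il27ra*-/-, with a median of 0.09 that was −0.17 without replicate 2, where 30 of 35 were lower. *Orc6*, a subunit of the origin recognition complex, was at 22.6, 23.6, 29.0 and 18.1 CPM in *Il27ra*+/- and at 14.4, 16.6, 16.2 and 14.6 CPM in *Il27ra*-/-, apart in all libraries. It was the 1 member of the list lower at an unadjusted p under 0.05 with all libraries, against 0.831% of all genes; without replicate 2 none was. Of 24 cyclins, cyclin-dependent kinases and E2F factors none had such a p with all libraries, and without replicate 2 *Ccnd2* was higher and *E2f8* lower, against 0.541% and 0.923% of all genes. *Ccnd2*, cyclin D2, was at 238, 398, 370 and 362 CPM in *Il27ra*+/- and at 419, 301, 523 and 492 CPM in *Il27ra*-/-, with replicate 2 alone among those of *Il27ra*+/-. *E2f8* was at 155, 64.1, 126 and 113 CPM in *Il27ra*+/- and at 42.5, 164, 62.1 and 95.9 CPM in *Il27ra*-/-. The medians of the cyclin list were 0.07 and −0.12.

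The lists of stem cell quiescence (24 genes tested), Trp53 and its targets (29), CDK inhibitors (7), the Myc and Max network (11), ribosome biogenesis and Myc-responsive metabolism (31), NF-kB and inflammatory genes (19) and insulin-like growth factor signaling (12) held no gene with an unadjusted p under 0.05 in either fit. Their medians with all libraries were −0.00, 0.02, 0.32, −0.09, −0.00, 0.00 and 0.05, and without replicate 2 they were 0.03, 0.03, 0.01, −0.06, −0.01, −0.16 and 0.04, in the same order. The multipotent progenitor list had 1 of 12 higher, *Cd52*, with 59.5 CPM in replicate 2 and at most 1.56 CPM elsewhere, and 0 without replicate 2, against 1.77% and 0.541% of all genes. Myeloid transcription factors had 3 of 18 higher with all libraries, *Cebpb*, *Cebpd* and *Cebpe*, and hematopoietic growth factor receptors 3 of 20, *Csf2rb*, *Tlr2* and *Csf1r*, against the same 1.77%, and neither list had any without replicate 2. *Cebpb*, a factor of emergency granulopoiesis, was at 8.34, 16.5, 18.0 and 10.3 CPM in *Il27ra*+/- and at 23.8, 58.5, 19.0 and 24.2 CPM in *Il27ra*-/-, and *Tlr2*, a receptor for bacterial lipoproteins, at 4.94 to 7.85 CPM in *Il27ra*+/- and at 8.11 to 18.4 CPM in *Il27ra*-/-. Both were apart in all libraries and highest in replicate 2, with log2 fold changes of 1.22 and 0.92 that were 0.74 and 0.67 without it. *Csf2rb*, the shared chain of the IL-3 and GM-CSF receptors, was at 18.6, 16.9, 7.48 and 15.4 CPM in *Il27ra*+/- and at 26.5, 168, 13.9 and 18.8 CPM in *Il27ra*-/-. Niche adhesion and homing genes had 1 of 19 lower in both fits, *Itga2b*, against 0.831% and 0.923% of all genes. Cholesterol synthesis and sterol transport had 0 of 30 with all libraries and 1 higher without replicate 2, against 0.541% of all genes. This was *Scap*, the escort protein of SREBP, at 62.8, 64.5, 68.2 and 70.0 CPM in *Il27ra*+/- and at 70.5, 64.1, 83.7 and 99.1 CPM in *Il27ra*-/-. Immediate early genes had 0 of 19 with all libraries and 1 lower without replicate 2, against 0.923% of all genes: *Atf3*, which had at most 1.97 CPM in *Il27ra*+/-. Of the 5 sex-linked genes none had such a p, and the mitochondrially encoded genes were not analysed here.

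**Figure D4:**
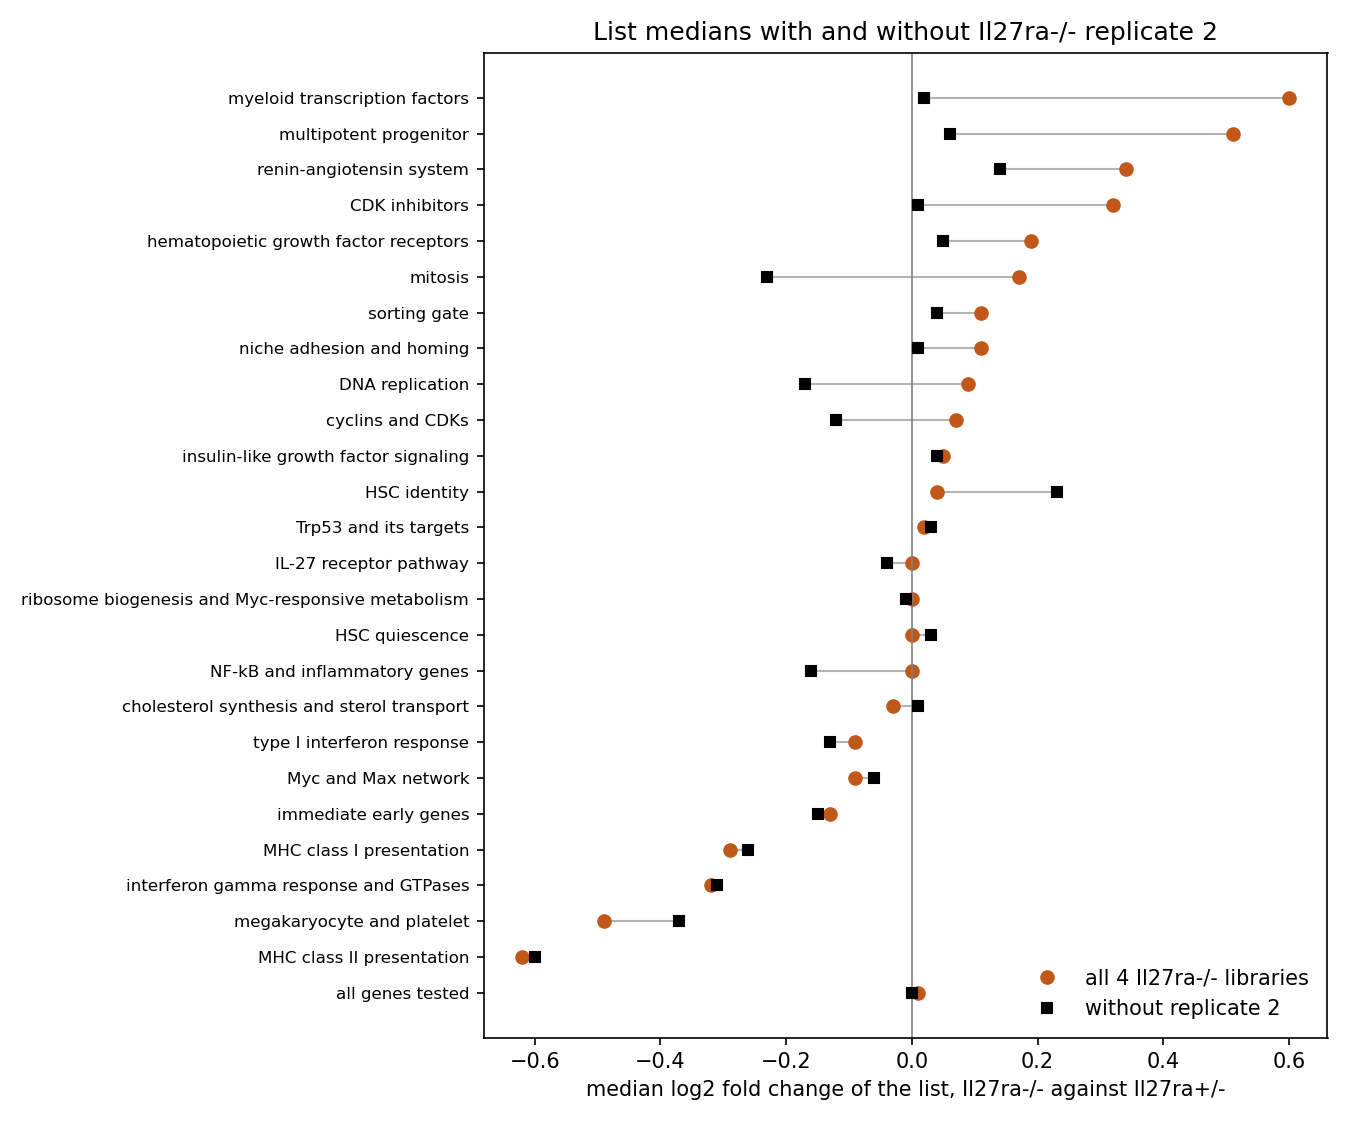
Median log2 fold change (Il27ra−/− against Il27ra+/−) of each gene list with all 4 Il27ra−/− libraries (orange circles) and without replicate 2 (black squares), with all genes tested in the last row. The medians of mitosis (0.17 and −0.23), DNA replication (0.09 and −0.17) and cyclins and CDKs (0.07 and −0.12) change sign, while those of the MHC and interferon gamma lists lie below 0 in both.

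The same genes can be followed in LT-HSC after PBS, where 3 libraries of each genotype share no sample with those above. PBS *Il27ra*-/- replicate 2 stood apart there too: *Mpo* was at 0.507, 3.73 and 5.07 CPM in PBS *Il27ra*+/- and at 13.6, 3720 and 108 CPM in PBS *Il27ra*-/-. *Mmrn1*, which encodes multimerin 1, was at 567, 461 and 621 CPM in PBS *Il27ra*+/- and at 757, 25.4 and 456 CPM in PBS *Il27ra*-/-. PBS *Il27ra*-/- replicate 3 held 71.4 CPM of *Chil3* and 62.9 CPM of *Prg2*. The PBS fold changes below include these libraries. *H2-Q6* was at 373, 282 and 276 CPM in PBS *Il27ra*+/- and at 185, 156 and 213 CPM in PBS *Il27ra*-/-. *Tgtp2* was at 191, 333 and 229 CPM against 102, 157 and 173 CPM. Both were lower in all 3 PBS *Il27ra*-/- libraries than in all 3 of PBS *Il27ra*+/-, with log2 fold changes of −0.75 and −0.80. *Tgtp1* was at 175, 150 and 96.1 CPM in PBS *Il27ra*+/- and at 60.8, 51.0 and 108 CPM in PBS *Il27ra*-/-. Its groups overlapped, and its log2 fold change was −0.93. Over all 16365 genes tested there, 388 were lower and 265 higher at an unadjusted p under 0.05. Against these shares, the class I list had 3 of 23 lower and 0 higher, at a median of −0.04. The interferon gamma list had 6 of 22 lower and 1 higher, against the same shares, at a median of −0.39. For the megakaryocyte and platelet list it was 6 of 19 lower and 0 higher, again against these shares, at a median of −0.97. *Adgrl1* was at 127, 111 and 93.5 CPM in PBS *Il27ra*+/- and at 59.0, 20.4 and 43.9 CPM in PBS *Il27ra*-/-. *Itga2b* was at 423, 341 and 267 CPM against 212, 85.1 and 228 CPM, where the lowest value of each belonged to PBS *Il27ra*-/- replicate 2, the lowest of the 6 libraries for *Gp1ba* (9.20 CPM) and *F2rl2* (21.2 CPM) too. The difference between genotypes was then compared between infusions and between cell types by an interaction term. For infusion, edgeR called 0 of 16365 genes, with 414 at an unadjusted p under 0.05, and without *Il27ra*-/- replicate 2 of Ang II it called 0 of 16256, with 430. DESeq2 called 0 genes in that test. For *H2-Q6* the interaction was −0.11 (SE 0.242), for *Tgtp1* 0.12 (SE 0.335), and for *Il27ra* 0.62 (SE 0.414), each with an adjusted p of 1.00. In HPC-1 after Ang II, a more differentiated progenitor sorted as CD150-CD48+ from 4 libraries of each genotype, *H2-Q6* was at 100, 132, 170 and 95.6 CPM in *Il27ra*+/- and at 82.3, 76.2, 64.9 and 98.2 CPM in *Il27ra*-/-, with overlap. *Tgtp1* was at 30.0, 36.7, 42.6 and 44.1 CPM there in *Il27ra*+/- and at 40.3, 55.0, 34.3 and 54.6 CPM in *Il27ra*-/-. Its copy *Tgtp2* was at 57.4, 96.7, 157 and 111 CPM against 88.3, 88.2, 75.4 and 102 CPM, with overlap. In HPC-1 the log2 fold changes were −0.62 for *H2-Q6*, 0.26 for *Tgtp1* and −0.01 for *Adgrl1*. They were −0.75 for *Psd3*, −0.49 for *Zeb2*, −0.35 for *Muc13*, −0.26 for *H2-Q7*, −0.21 for *Nlrc5* and 0.20 for *Gm12185*. Of 13199 genes tested there, 174 were lower and 201 higher at an unadjusted p under 0.05. Against these shares, 2 of 23 class I genes were lower and 0 higher, at a median of −0.17. For the interferon gamma list it was 1 of 18 and 0, at −0.18. For the megakaryocyte and platelet list it was 0 of 12 and 0, at −0.20. The interaction of genotype with cell type gave 0 of 18013 genes by edgeR, with 529 at an unadjusted p under 0.05, and 0 by DESeq2, and without replicate 2 it gave 0 of 17985, with 429. For *Tgtp1* it was −1.06 (SE 0.687), for *Adgrl1* −1.01 (SE 0.467, unadjusted p = 0.0384) and for *H2-Q7* −0.73 (SE 0.325, unadjusted p = 0.0318), each with an adjusted p of 1.00; without replicate 2 the unadjusted p of the last 2 were 0.0739 and 0.0809. For *H2-Q6*, the near-identical copy of *H2-Q7*, the interaction with cell type was −0.23 (SE 0.254), or −0.11 (SE 0.252) without replicate 2.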

How the data were processed

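RNA of 5000 sorted cells per sample was sequenced as stranded paired-end reads by the authors, who mapped them to mm10 and deposited RSEM expected counts per gene; all values of the 38887 genes in the 36 libraries were whole numbers, so none needed rounding. The members and gene lists were chosen with earlier results of these data known. Counts were tested with edgeR 4.0.16 in R 4.3.3 (TMM, filterByExpr, robust quasi-likelihood fit, prior count 2 for log2 CPM) over the 17 LT-HSC libraries in 6 groups, and over all 36 for the interaction with cell type, with Benjamini-Hochberg adjustment over all genes tested at 5%. The contrast was computed again without *Il27ra*-/- replicate 2. The labels give no gender or batch, so the fit had no covariate. Genes were named by a rule: *Il27ra* and *Agtr1a*; per direction the 10 genes with the smallest p among those with a mean of at least 10 counts whose groups did not overlap, and 5 more from the fit without replicate 2; and per list the most abundant member and those with an unadjusted p under 0.05 in either fit, up to 4 in all. *Myc*, *Ccnd1*, *Trp53* and *Cdkn1a*, which the rule also names, and some other genes that it names are not described. Genes in the text that the rule does not name were chosen after their values were seen: *Agtr1b*, *Agtr2*, *Asna1*, *B2m*, *Calr*, *Cd48*, *Gm24924*, *H2-Q4*, *H2-T23*, *Hook2*, *Ifngr2*, *Igtp*, *Il27*, *Il6st*, *Irf1*, *Palm3*, *Psmb9*, *Ren1*, *Selp*, *Slamf1*, *Tap1*, *Tbc1d9* and *Vwf*. Lists, 35 in number, are given by counts and medians with no test. A sum over a list counts its members in the table. Alternatives were DESeq2 1.42.0, limma 3.58.1 (voom with sample weights), other normalization and filters, a block by replicate number, a covariate from Y-linked genes, the compared groups only, libraries on each side of 4 M counts, and leaving out each library. The pipeline was tested on simulated data. Values cover counting error and replicate spread of 4 libraries per group; what each library's mice contributed is not stated by the labels.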

Additional observations from a re-analysis of the deposited data

Results flagged for a closer look

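In 230 groups of 4 libraries (genes in the text and list sums), 35 had 1 library far from the other 3. The limit used gives about 1 in 20 groups by chance when groups are independent and not chosen by their values. Several of these genes were named because *Il27ra*-/- replicate 2 was high for them, and some list sums hold the same genes. The number flagged therefore cannot be read against that rate. Of the 35, 26 were *Il27ra*-/- replicate 2. For genes these were its 76.5 CPM of *Nlrc5*, 353 of *Zeb2*, 142 of *Ckap2l*, 160 of *Nhsl2*, 1185 of *Mpo*, 1768 of *Lyz2*, 58.5 of *Cebpb*, 168 of *Csf2rb*, 3055 of *Mki67*, 69.1 of *Selp*, 36 of *Ifngr2*, 4.15 of *Atf3*, 1116 of *Calr*, 8.76 of *Cd48*, 59.5 of *Cd52*, 39.6 of *Cebpd*, 18.4 of *Cebpe*, 446 of *Chil3*, 70.1 of *Csf1r*, 16.1 of *Mcpt8*, 305 of *Prg2* and 47.5 of *Prss34*. For lists they were its sums of 12780 CPM for granulocyte and monocyte genes, 175 for macrophage genes, 873 for eosinophil, basophil and mast genes and 240 for MHC class II presentation. It was the lowest of its group for *Nlrc5* and *Selp* and the highest for the others. The remaining 9 were spread over other libraries: 18.3 CPM of *Hook2* and 4.18 of *Ifngr2* in *Il27ra*+/- replicate 3; 20.6 of *Prg2* in *Il27ra*+/- replicate 4 and 11.7 of *Il27* in *Il27ra*-/- replicate 1; sums of 45.6 CPM for eosinophil, basophil and mast genes, 1709 for the type I interferon response and 1756 for the Myc and Max network in *Il27ra*+/- replicate 4; 2193 for hematopoietic growth factor receptors in *Il27ra*+/- replicate 2; and 2820 for immediate early genes in *Il27ra*-/- replicate 1.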

How the results depend on the processing

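Among all 88 genes that the rule names, 1989 of 2085 log2 fold changes under the alternatives kept their sign and 96 did not, and 27 genes changed sign at least once. Of the 83 tested genes described in the text, 67 kept their sign throughout (1889 of 1963 values, with 74 that did not, of which some are 0.00). *Il27ra* was between −0.96 and −0.74, the median of MHC class I presentation between −0.30 and −0.13 and that of the interferon gamma list between −0.43 and −0.25 in these fits, while the plain difference in libraries under 4 M counts without *Il27ra*-/- replicate 2, which is no fit, gave −0.05 for the latter. The count at a 5% false discovery rate was 0 except by DESeq2 (2, and 2 without *Il27ra*-/- replicate 2) and with no filter on low counts, where more genes are tested (249, and 10 without *Il27ra*-/- replicate 2); the interactions then gave 71 genes for infusion and 111 for cell type. At an unadjusted p under 0.05 there were 1108 genes with no filter, 654 with no filter and without *Il27ra*-/- replicate 2, and 223 in libraries of at least 4 M counts, an alternative chosen after seeing the data, as was leaving PBS *Il27ra*-/- replicate 2 out of the spread (477). Leaving out 1 library at a time gave 238 to 512, with 238 without *Il27ra*-/- replicate 2 and 278 without *Il27ra*+/- replicate 1. Genes whose groups did not overlap numbered 320, and 807 without *Il27ra*-/- replicate 2, where fewer libraries need to be apart. *Agtr1a* was at −0.26 in libraries of at least 4 M and between −0.07 and 1.27 when 1 library was left out. *Lyz2* was between −0.09 and 2.47 when 1 library was left out; without *Il27ra*-/- replicate 2 it was −0.09 by DESeq2, with no filter and with the compared groups only, and −0.11 with the Y-linked covariate. *Mki67* was between −0.44 and 0.33 when 1 library was left out, −0.22 by limma-voom and −0.24 in libraries of at least 4 M counts; without *Il27ra*-/- replicate 2 it was −0.44 by DESeq2 and with no filter, −0.45 with the compared groups only and −0.43 with the covariate. *Atf3*, 0.04 with all libraries, was −0.02 with upper-quartile normalization, −1.30 with the replicate block, −0.25 with the Y-linked covariate, −2.45 by limma-voom and between −4.87 and 0.63 when 1 library was left out; without *Il27ra*-/- replicate 2 it was −4.44 by DESeq2, −4.87 with no filter and −5.14 with the covariate. *Prg2* was −2.77 in libraries of at least 4 M counts and between −1.11 and 11.10 when 1 library was left out; without *Il27ra*-/- replicate 2 it was −0.84 by DESeq2, −1.11 with no filter and −1.13 with the compared groups only. *Mcpt8* and *Prss34* were 0.00 in libraries of at least 4 M and, without *Il27ra*-/- replicate 2, 0.00 by DESeq2 and with no filter and −0.24 with the covariate, and between 0.00 and 7.34 and between 0.00 and 8.91 when 1 library was left out. *Cebpe* was −0.52 by limma-voom, −3.81 in libraries of at least 4 M and −2.62 with no filter and without *Il27ra*-/- replicate 2. *Kit* was 0.04 in libraries of at least 4 M and between −0.20 and 0.09 when 1 library was left out; without *Il27ra*-/- replicate 2 it was 0.01 by DESeq2 and with the compared groups only, 0.02 with no filter and 0.08 with the covariate. *Il6st* was 0.05 by limma-voom, 0.15 in libraries of at least 4 M and between −0.09 and 0.05 when 1 library was left out; without *Il27ra*-/- replicate 2 it was 0.06 by DESeq2 and with no filter and 0.05 with the compared groups only and with the covariate. *Xist* was −0.07 with the replicate block, −0.22 with the covariate, −0.55 in libraries under 4 M, −0.03 with the covariate and without *Il27ra*-/- replicate 2, and between −0.68 and 0.67 when 1 library was left out. *Il27* was −0.05 by limma-voom and −0.19 in libraries of at least 4 M, *Cd48* −0.69 in the latter, *Slamf1* −0.15 in libraries under 4 M, and *Mmrn1* 0.04 with the covariate and without *Il27ra*-/- replicate 2. *Gm24924* was 0.00 in libraries under 4 M and between −9.30 and 0.00 when 1 library was left out. The cause was not tested, except that leaving out *Il27ra*-/- replicate 2 alone was enough to turn *Lyz2*, *Mki67*, *Atf3*, *Prg2*, *Kit* and *Il6st*. The same step brought *Mcpt8* and *Prss34* to 0.00. Replicate 2 was the highest library for *Lyz2*, *Mki67*, *Atf3* and *Prg2*. With the replicate number as a replicate block, 0 genes passed, 303 had an unadjusted p under 0.05 and *Mki67* was at −0.00; libraries of the same number correlated at 0.0654 to 0.310 after their group means were removed, and 2 of 4 *Il27ra*-/- libraries correlated best with their own number. Depth limits what can be seen of genes near the limit of detection, and 4 libraries per group limit the rest: a gene that missed the threshold may still differ.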
